A study of Mus musculus with 8 samples.

Results

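The genes described here are 10 genes of the unfolded protein and amino acid stress response, chosen by name (Hspa5, Hsp90b1, Pdia4, Herpud1, Xbp1, Atf4, Ddit3, Trib3, Asns and Chac1) from the 24054 genes of an RNA-seq table. All 10 had a row. RNA came from soleus (SOL), a postural hindlimb muscle rich in slow fibers, of 4 MI4KO mice and 4 flox mice, all C57BL/6 males whose labels record a high fat diet. MI4KO mice carry floxed alleles of Irf4, a transcription factor of the interferon regulatory family, and a Cre recombinase driven by Myl1, a fast-type myosin light chain gene active in muscle fibers. Flox mice carry the same floxed alleles without Cre, so every mouse of the comparison has the floxed locus, and blood, vessel, immune and connective tissue cells of an MI4KO muscle are not expected to lose the gene. The age of these mice is not given in the sources used here. Mice are numbered 1 to 4 within each group, and a number shared by both groups has no meaning.

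The endoplasmic reticulum (ER) folds membrane and secreted proteins, and in muscle fibers part of it is specialized as the calcium store. When unfolded proteins build up there, the sensors IRE1, PERK and ATF6 are released from the chaperone BiP: ATF6 and the spliced form of Xbp1 mRNA, cut by IRE1, raise chaperones and degradation factors, while PERK slows protein synthesis by phosphorylating eIF2alpha. Shortage of amino acids reaches eIF2alpha through another kinase, GCN2, and both routes favor translation of ATF4, which induces genes for amino acid supply and, under lasting stress, Ddit3 and Trib3. The ER arm here holds Hspa5, Hsp90b1, Pdia4, Herpud1 and Xbp1, and the ATF4 arm holds Atf4, Ddit3, Trib3, Asns and Chac1.

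The DNA letters through which these arms are known to act are shown first, because they were read without using expression. The searched windows reach from 250 bases before to 50 bases after each gene's start in RefSeq (GRCm38.p6), and both strands were read. The ER stress response element (ERSE, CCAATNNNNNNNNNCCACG), bound by ATF6 and XBP1 together with NF-Y, was found in 0.119% of 32851 promoter windows, and its shorter relative ERSE-II (ATTGGNCCACG) in 0.0365%. The core of the C/EBP-ATF response element (CARE core, TGATGNAA), read by ATF4 with C/EBP partners, was found in 3.97%. No ERSE, ERSE-II or CARE core site overlaps another of these sites. Among the 10 genes, 2 held an ERSE, 1 an ERSE-II and 4 a CARE core, each printed 5′ to 3′ on the gene's own strand with the match in capitals. The CARE core of Chac1, Herpud1 and Trib3 and the site of Hsp90b1 nearer to its start match on the opposite strand.
Hspa5 ERSE, chr2:34772020-34772048, plus strand: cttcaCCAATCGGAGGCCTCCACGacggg
Hsp90b1 distal ERSE, chr10:86705633-86705661, minus strand: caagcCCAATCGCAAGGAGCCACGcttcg
Hsp90b1 proximal ERSE, chr10:86705528-86705556, minus strand: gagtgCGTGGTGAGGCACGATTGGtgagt
Herpud1 ERSE-II, chr8:94386368-94386396, plus strand: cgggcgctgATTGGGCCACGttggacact
Herpud1 CARE core, chr8:94386306-94386335, plus strand: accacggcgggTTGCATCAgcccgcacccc
Asns CARE core, chr6:7693214-7693243, minus strand: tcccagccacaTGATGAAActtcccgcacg
Chac1 CARE core, chr2:119351038-119351067, plus strand: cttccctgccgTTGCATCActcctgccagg
Trib3 CARE core, chr2:152344028-152344057, minus strand: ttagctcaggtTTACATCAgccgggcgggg

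Counted from the gene's RefSeq start, the first base of the ERSE lay 65 bases before it in Hspa5 and 212 and 107 bases before it in Hsp90b1. Herpud1 held an element of each kind, its CARE core 112 and its ERSE-II 52 bases before the start. The CARE core lay 23 bases before the start of Asns and 193 before that of Chac1, and 15 bases into the transcribed part of Trib3. The GENCODE gene positions given further below have other starts. By them the Hspa5 ERSE and the Asns CARE core lie inside the gene, and the CARE core of Trib3 lies before its start. Pdia4, Xbp1, Atf4 and Ddit3 held none of these letters in their windows, and the unfolded protein response element core (TGACGTGG), present in 0.676% of windows, was found in none of the 10. A match describes the letters only, and elements outside the window were not searched. As the 10 genes were chosen by name for this response, their counts beside the shares of all windows are no test of enrichment.

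Xbp1 carries a further stretch that matters for reading its value. IRE1 removes 26 bases from the Xbp1 mRNA, which switches the reading frame to the active factor, and these bases lie in exon 4 of the longest Xbp1 transcript of GENCODE M21 (GRCm38), shown with 10 flanking bases on each side and the removed bases in capitals.
Xbp1, chr11:5524272-5524317, plus strand: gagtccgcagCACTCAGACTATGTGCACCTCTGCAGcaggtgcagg
The deposited table holds a single value per gene, so the spliced and unspliced forms are added together and the activity of IRE1 was not measured. The same limit applies to Atf4, whose control is largely at translation, and which is seen here as mRNA alone.

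Reads recovered from the table numbered between 13417512 and 16384565 per mouse, and 3 reads correspond to values of 0.181 to 0.225. Values are CPM after trimmed-mean (TMM) scaling. Fold changes are differences of log2(value + 1), a scale on which changes of weakly expressed genes come out too small. Irf4 itself (chromosome 13) was at 0.686, 1.46, 1.58 and 1.68 in flox mice 1 to 4 and at 0.725, 0.840, 0.266 and 1.03 in MI4KO mice 1 to 4, on 4 to 23 reads per mouse. Its log2 fold change was -0.45 (standard error 0.20, unadjusted p = 0.040 by limma), but flox mouse 1 lay below 3 of the 4 MI4KO mice, and by exact two-sided permutation p was 0.114. The summed slow fiber markers were between 34986 and 46146 in the 8 mice and the fast fiber markers between 44167 and 59372, so muscle RNA was present in all of them. Liver markers summed to 172 in flox mouse 1 against 6.24 to 15.7 in the other 7 mice, and neutrophil markers to 4.32 in MI4KO mouse 3 against 0.146 to 0.423, where 3 of the 6 neutrophil genes had fewer than 3 reads in every mouse. Many results below are also given without these mice, or as a range with single mice left out. In whole muscle, fewer cells of a type and less RNA per cell cannot be told apart.

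The pathway was expressed at very different levels from gene to gene. Per kilobase of merged exons, the order of the flox means of normalized CPM was Atf4 at 102 ± 8.74 (SD, n = 4), Hspa5 at 74.5 ± 10.2, Herpud1 at 68.0 ± 4.05, Hsp90b1 at 56.0 ± 3.76, Ddit3 at 38.3 ± 4.86, Xbp1 at 23.8 ± 1.83, Chac1 at 10.2 ± 4.56, Pdia4 at 6.39 ± 0.474, Trib3 at 1.99 ± 0.220 and Asns at 0.587 ± 0.279. Over the 8 mice, the ranges of neighbors in this order overlapped for Atf4 and Hspa5, Hspa5 and Herpud1, Hsp90b1 and Ddit3, Ddit3 and Xbp1, and Chac1 and Pdia4. The lowest mouse for Herpud1 lay above the highest for Hsp90b1, and the same held for Xbp1 above Chac1, Pdia4 above Trib3 and Trib3 above Asns. The plot of levels per length shows these steps. The lengths merge all annotated protein-coding exons of a gene and are not those of the transcript expressed in this muscle. A narrow step, such as Herpud1 (lowest 64.6) above Hsp90b1 (highest 62.7), can depend on the length used.

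**Figure D1:**
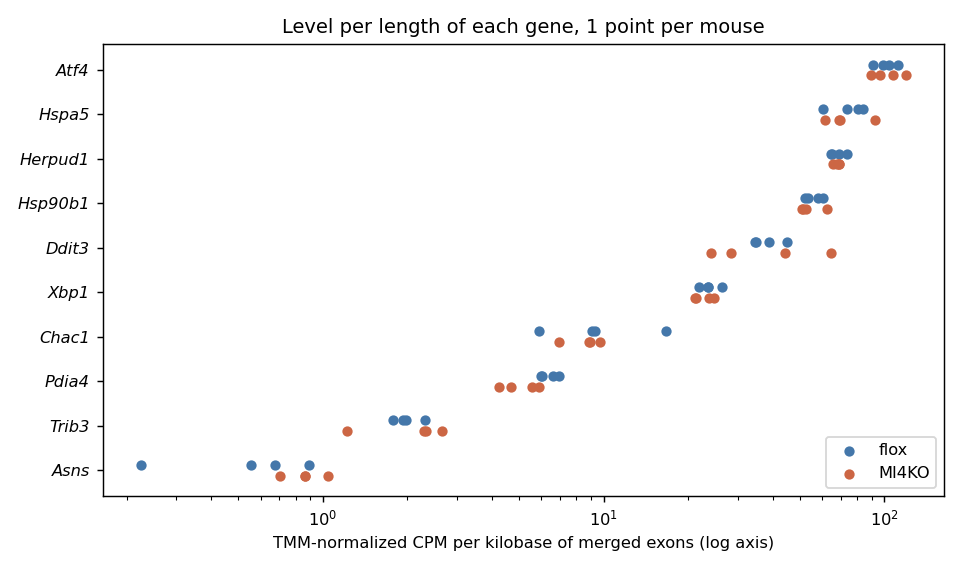
Normalized CPM per kilobase of merged exons (log axis) of each of the 10 genes, 1 point per mouse, blue for flox and orange for MI4KO. Atf4, Hspa5, Herpud1 and Hsp90b1 sit between 50.9 and 119.5, and Asns between 0.225 and 1.05.

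In the comparison that asks what loss of Irf4 in fibers does to these transcripts, none of the 10 genes differed by at least 1.5-fold with an unadjusted p under 0.05, limits that 0.219% of the 11865 genes tested passed. All 10 had enough signal to be tested. Of them, 1 gene, Pdia4, had an unadjusted p under 0.05 by limma, against 3.36% of all genes tested (2.95% lower in MI4KO mice and 0.413% higher). Its groups were also the 1 case without overlap, against 2.07% of all genes (1.70% lower and 0.371% higher). After Benjamini-Hochberg adjustment over all genes no gene of the table was under 0.05, with 399 genes under 0.05 before it, and edgeR's quasi-likelihood test and DESeq2 on the recovered reads also gave 0 genes after adjustment, with 363 and 248 before it. The median log2 fold change of the 10 genes was -0.03, beside -0.01 over all genes tested. For 8 of the 10 genes, the 95% interval of the fold change of value + 1 stayed inside 1.5-fold in either direction, and the exceptions were Asns and Chac1.

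**Figure D2:**
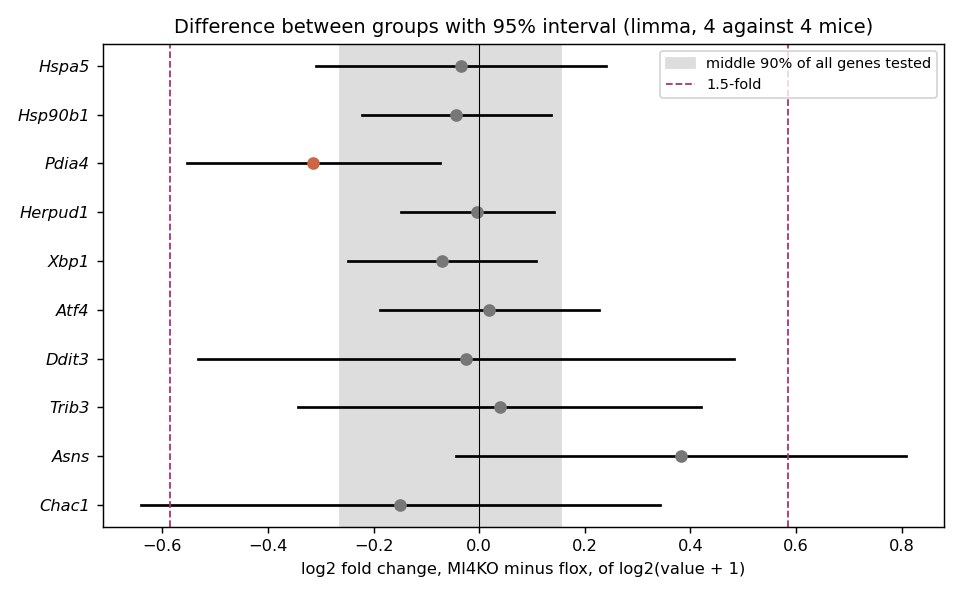
Log2 fold change (MI4KO minus flox, of log2(value + 1)) of each gene with its 95% interval from limma, 4 against 4 mice; the gray band holds the middle 90% of all genes tested, from -0.26 to 0.15, and dashed lines mark 1.5-fold. Pdia4, in orange, is the 1 gene whose interval does not reach 0.

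The folding machinery comes first. Hspa5 encodes BiP, an abundant ER chaperone and the brake on the sensors (chromosome 2, 34771970 to 34777547, GENCODE M21 on GRCm38). Its normalized CPM was 276, 227, 302 and 314 in flox mice 1 to 4 and 346, 258, 232 and 260.5 in MI4KO mice 1 to 4. The highest mouse was MI4KO 1 and the lowest flox 2, and the groups overlapped. The log2 fold change was -0.03 (standard error 0.13, exact permutation p = 0.829, adjusted p = 1.0 by limma), with a 95% interval that allows a fold between 0.808 and 1.18. Without MI4KO mouse 1 it was -0.15 and without MI4KO mouse 3 it was 0.04.

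Hsp90b1 encodes GRP94, the ER member of the HSP90 chaperones (chromosome 10, 86690209 to 86705509, minus strand). Flox mice were at 151, 148, 164 and 170.3 and MI4KO mice at 177, 145, 149 and 144. Again MI4KO mouse 1 stood highest, with the other 3 MI4KO mice close together at the lower end of the flox range or below it. The difference was -0.04 on the log2 scale (standard error 0.08, exact permutation p = 0.686), and its interval runs from 0.857-fold to 1.099-fold.

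Pdia4 encodes ERp72, a protein disulfide isomerase that forms and reshuffles disulfide bonds in the ER (chromosome 6, 47796141 to 47813430, minus strand). It was at 14.3, 14.4, 15.8 and 16.7 in flox mice and at 14.1, 11.2, 10.2 and 13.3 in MI4KO mice. Every MI4KO mouse was below every flox mouse, although MI4KO 1 and flox 1 were only 0.267 apart. The means were 15.3 ± 1.14 and 12.2 ± 1.80 (SD, n = 4), a ratio of 0.796 for MI4KO to flox. This is a log2 fold change of -0.31 (standard error 0.11, interval from 0.681-fold to 0.949-fold). By limma its p was 0.014 before adjustment and 1.0 after it, and by exact two-sided permutation it was 0.0286, the smallest p that 4 mice against 4 allow. Between 153 and 230 reads per mouse stand behind it, a counting error of 6.59% to 8.08%. The direction was the same and the unadjusted p under 0.05 (0.00512 to 0.0483) in all 19 alternative settings, but the change did not reach 1.5-fold in any of them and did not pass the adjustment. With single mice left out, MI4KO mouse 3 among them, the log2 fold change of Pdia4 lay between -0.38 and -0.24. By exact permutation its p was 0.0571 with median-of-ratios scaling and with scaling to total reads, so the groups overlapped under these scalings. Other cell types of the tissue also make secreted proteins and can express this gene: endothelial markers summed to 354 to 435 in flox mice and, in MI4KO mice, to 270.4 to 388 (exact permutation p = 0.114), fibroblast and tendon markers to 365 to 492 and 291 to 473 (exact permutation p = 0.429), and plasma cell markers to 4.11 to 4.99 and 3.70 to 5.08 (exact permutation p = 0.829). Their part in the Pdia4 difference was not tested.

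Herpud1 encodes a membrane protein of ER-associated degradation, which returns misfolded proteins to the cytosol for the proteasome (chromosome 8, 94386438 to 94395377). Its values were 143, 127, 134 and 126 in flox mice, while MI4KO mice had 132, 135, 135 and 127.6. This was the steadiest of the 10 genes, with a highest mouse only 1.14 times the lowest and a within-group SD at percentile 2.85 of all genes tested. On the log2 scale the groups differed by -0.0034 (standard error 0.07, exact permutation p = 0.971), and the interval allows no more than 0.903-fold to 1.103-fold.

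Xbp1, the mRNA that IRE1 splices (chromosome 11, 5520659 to 5525893), was at 56.1, 56.3, 52.4 and 62.9 in flox and at 58.9, 50.4, 56.6 and 50.8 in MI4KO mice. The groups overlapped, with 2 MI4KO mice below all flox mice. The difference was -0.07 on the log2 scale (standard error 0.08, exact permutation p = 0.486), and the fold lies between 0.842 and 1.08 in the 95% interval.

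**Figure D3:**
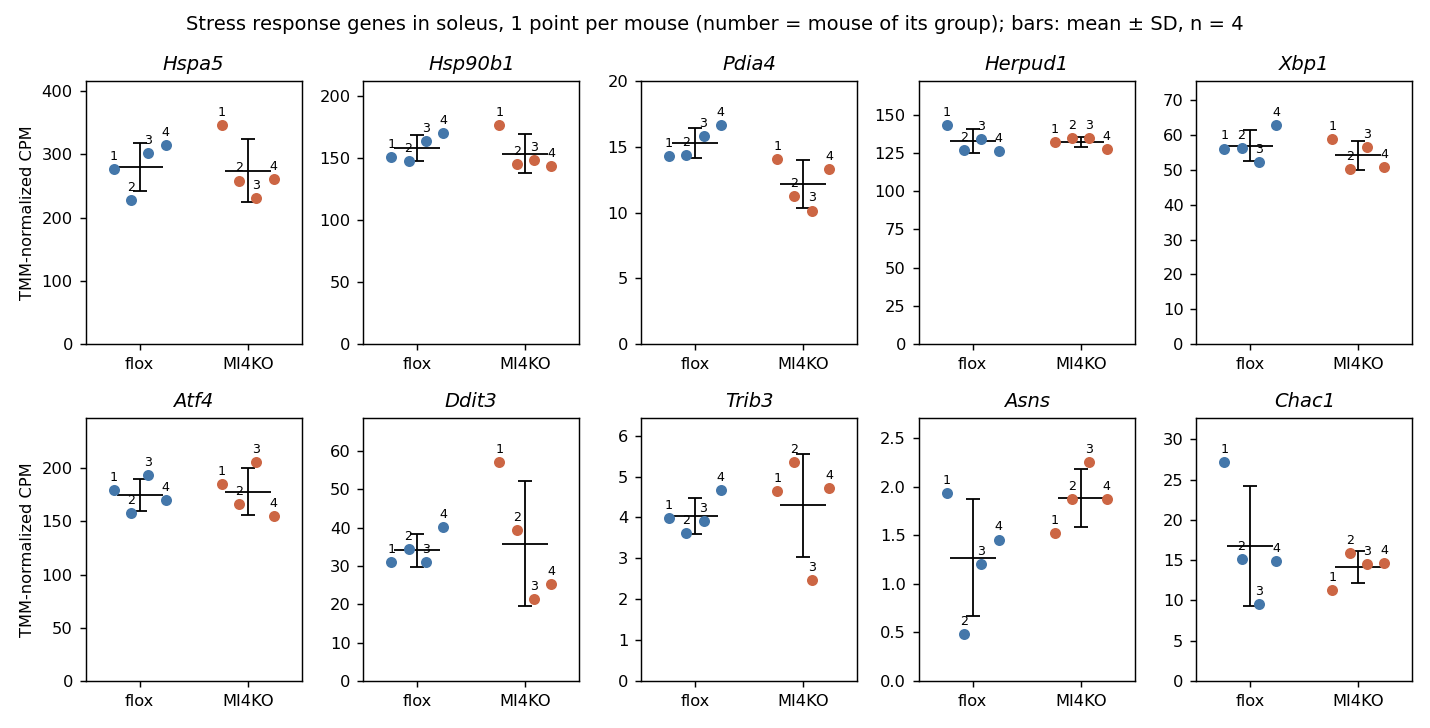
Normalized CPM of the 10 genes, 1 point per mouse with the mouse's number in its group, from 0 on each axis; bars give mean ± SD (n = 4). Pdia4 is the 1 panel in which the groups separate, and MI4KO mouse 1 is highest for Hspa5, Hsp90b1 and Ddit3.

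In the ATF4 arm, Atf4 encodes the factor itself (chromosome 15, 80255184 to 80257541). Flox mice were at 179.6, 158, 193 and 170.1 and MI4KO mice at 185, 167, 206 and 155. Both ends of the range, 206 and 155, were MI4KO mice, so that the flox values lay inside it. The groups differed by 0.02 on the log2 scale (standard error 0.10, exact permutation p = 0.886), with an interval from 0.878-fold to 1.17-fold.

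Ddit3 encodes CHOP, a factor tied to cell death under prolonged ER stress (chromosome 10, 127290774 to 127296288). It was at 30.9, 34.5, 30.9 and 40.1 in flox mice and at 57.2, 39.5, 21.4 and 25.3 in MI4KO mice. The group means of 34.1 and 35.9 were close, but the MI4KO mice spread on both sides of the flox range: mouse 1 above all flox mice and mice 3 and 4 below all of them. The coefficient of variation was 12.7% in flox and 45.3% in MI4KO mice, while counting error was at most 5.57%, and the within-group SD lay at percentile 97.9 of all genes tested. The difference between both spreads was not tested. Between the groups the log2 fold change was -0.03 (standard error 0.23, exact permutation p = 0.914), with an interval from 0.691-fold to 1.40-fold. Its sign turned without MI4KO mouse 3 (0.18), MI4KO mouse 4 (0.10) or flox mouse 4 (0.05), and without MI4KO mouse 1 it was -0.28.

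Trib3 encodes a pseudokinase that CHOP and ATF4 induce and that binds AKT and ATF4 (chromosome 2, 152337422 to 152344032, minus strand). Flox mice were at 3.99, 3.61, 3.90 and 4.66 and MI4KO mice at 4.64, 5.37, 2.46 and 4.71. The lowest mouse was again MI4KO 3, and the other 3 MI4KO mice lay at the upper end of the flox range or above it. Its log2 fold change was 0.04 (standard error 0.18, exact permutation p = 0.971). With MI4KO mouse 3 left out this became 0.23 (exact permutation p = 0.0857). Trib3 had 37 to 83 reads per mouse, for which counting error is 10.98% to 16.4%.

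Asns encodes asparagine synthetase, a direct ATF4 target in amino acid shortage (chromosome 6, 7675169 to 7693254, minus strand). It was the lowest of the 10 genes, at 1.93, 0.486, 1.2005 and 1.46 in flox mice and at 1.52, 1.87, 2.26 and 1.87 in MI4KO mice. Apart from flox mouse 1, every flox mouse was below every MI4KO mouse. The means were 1.27 ± 0.604 and 1.88 ± 0.301 (SD, n = 4), a ratio of 1.48, and the log2 fold change was 0.38 (standard error 0.20, p = 0.075 by limma, exact permutation p = 0.114), with an interval from 0.970-fold to 1.75-fold. Without flox mouse 1, the mouse with liver RNA, it was 0.52 (p = 0.021 by limma, exact permutation p = 0.0286), and without flox mouse 2 it was 0.19 (p = 0.258 by limma, exact permutation p = 0.200). Leaving out both flox mouse 1 and MI4KO mouse 3 gave 0.46 (p = 0.045 by limma, exact permutation p = 0.10, the smallest that 3 mice against 3 allow). It rests on 7 to 34 reads per mouse, with a counting error up to 37.8% in flox mouse 2, so a difference of this size was not distinguishable from the spread at this depth.

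Chac1 encodes an enzyme that degrades glutathione and is induced by ATF4 (chromosome 2, 119351229 to 119354381). Flox mice were at 27.2, 15.2, 9.60 and 14.9 and MI4KO mice at 11.3, 15.9, 14.6 and 14.7. Both the highest and the lowest mouse were flox mice, and the highest, at 27.2, was flox mouse 1. The difference of -0.15 on the log2 scale (standard error 0.23, exact permutation p = 0.714, interval from 0.641-fold to 1.27-fold) turned to 0.10 without flox mouse 1 (exact permutation p = 0.600). Whether the liver RNA of flox mouse 1 took part in its Chac1 value was not tested.

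Across the 10 genes, MI4KO mouse 1 held the highest value of 3 and the lowest of none, and MI4KO mouse 3 the highest of 2 (Atf4 and Asns) and the lowest of 3 (Pdia4, Ddit3 and Trib3). How far the genes moved together over mice was asked of all 45 pairs. The highest Pearson r joined the chaperones Hspa5 and Hsp90b1 (r = 0.89, exact permutation p = 0.0032, Spearman rho = 0.79, exact permutation p = 0.028). Adjusted over the 45 pairs, these p-values were 0.145 and 0.516, so the relation did not pass. It was 0.84 without the 2 mice farthest from the Hspa5 median (MI4KO 1 and flox 2), 0.89 on deviations from the group means, and 0.80 to 0.91 with each mouse left out in turn. Both genes hold ERSE letters in their windows, whose part in this relation was not tested. Herpud1, which holds an ERSE-II, had r of -0.009 with Hspa5 and -0.15 with Hsp90b1.

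Of the other pairs none had a permutation p of r under 0.05 over all 8 mice. Without MI4KO 1 and flox 2, however, Hspa5 with Pdia4 had r = 0.96 (exact permutation p = 0.0042, unadjusted). That pair had r = 0.59 over all mice and 0.80 on deviations from the group means. Hspa5 with Asns had r = -0.89 without these mice (exact permutation p = 0.021, unadjusted) and 0.10 over all mice. Ddit3 reached r = 0.69 with Hspa5 (exact permutation p = 0.054, adjusted p = 0.721; rho = 0.52, exact permutation p = 0.197, adjusted p = 0.701) and r = 0.68 with Hsp90b1 (exact permutation p = 0.068, adjusted p = 0.721, with the same rho and its p). Without MI4KO mouse 1 these r fell to 0.44 and 0.39. By rank, 3 other pairs were under 0.05 before adjustment and at 0.516 after it: Hsp90b1 with Xbp1 (rho = 0.74, exact permutation p = 0.046), Herpud1 with Asns (rho = 0.76, exact permutation p = 0.037) and Pdia4 with Asns (rho = -0.76, exact permutation p = 0.037), whose r were 0.66, 0.48 and -0.53. The r of Pdia4 with Asns was -0.36 without MI4KO mouse 3 and -0.59 without flox mouse 1. Within the ATF4 arm the 10 pairs had a median r of -0.09, from -0.61 (Atf4 with Trib3) to 0.64 (Ddit3 with Trib3). Exact permutation p-values of r for these pairs were 0.101 and 0.0945 (adjusted 0.721 for each), with rho of -0.57 and 0.43 (exact permutation p = 0.151 and 0.299, adjusted 0.701 for each). Both rested on MI4KO mouse 3: without it Ddit3 with Trib3 fell to 0.31 and Atf4 with Trib3 went to -0.17. Within the ER arm the median r of 10 pairs was 0.39 and between arms, over 25 pairs, 0.19. All pairs share the same 8 libraries and their scaling, and the 3 medians were not tested against each other.

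**Figure D4:**
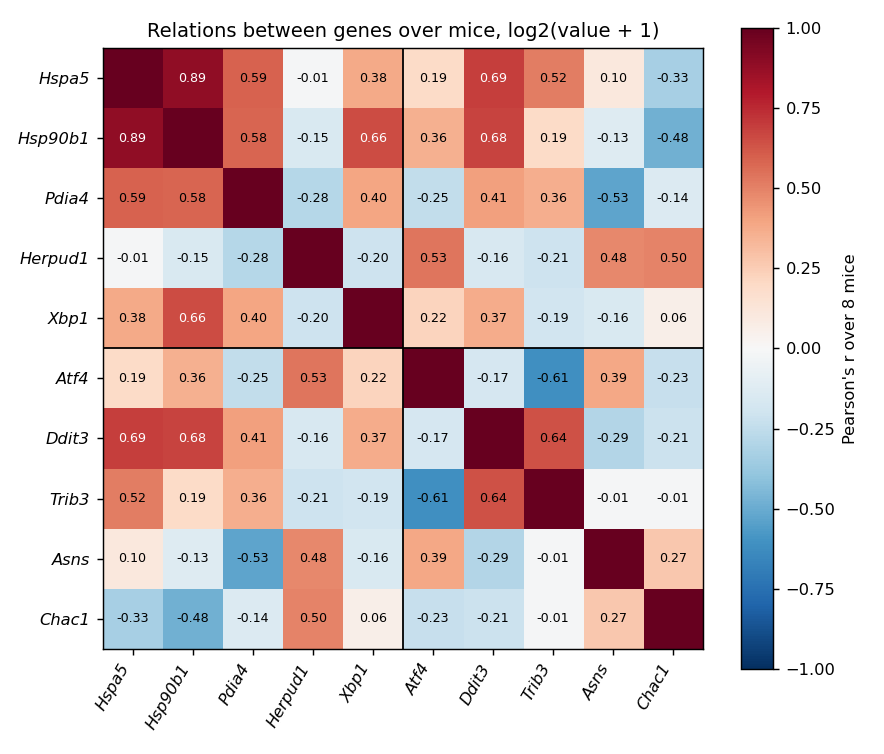
Pearson's r of log2(value + 1) over 8 mice for each pair of the 10 genes, red for positive and blue for negative; lines part the ER arm (first 5 genes) from the ATF4 arm. Hspa5 with Hsp90b1 is the darkest off-diagonal cell at 0.89, and Atf4 with Trib3 the bluest at -0.61.

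Among all 11864 other genes tested, those most like Hspa5 over the 8 mice were Med27 (r = 0.96), Daglb (0.96) and Hspb8 (0.95), a small heat shock protein of muscle, and Hsp90b1 ranked at 36. The genes most like Atf4 were Tmem38a (r = 0.99), which encodes a cation channel of the sarcoplasmic reticulum, Psmc3 (0.98), a proteasome ATPase, and Rnf121 (0.98). The nearest of the 10 genes to Atf4, Herpud1, ranked at 3130, and Trib3 at 11332. These r are the top of a very long list over few mice and carry no test.

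The wider pathway was read from 8 lists of genes. ER chaperones and folding enzymes had 24 genes, all tested, of which none passed both limits. Pdia4 alone had an unadjusted p under 0.05 (1 of 24, beside 3.36% of all genes tested), 19 of the 24 lay below 0, as did 56.2% of all genes tested, and the list's median log2 fold change was -0.05 beside -0.01 over all genes tested. Besides Pdia4, the values of Ppib, an ER cyclophilin named after its values were seen, did not overlap (25.2 to 28.4 in flox mice and 22.3 to 24.7 in MI4KO mice, p = 0.084 by limma, exact permutation p = 0.0286). In this list 2 of 24 genes were thus lower without overlap, beside 1.70% of all genes tested. Of 17 genes of ER-associated degradation tested, 1 was lower at an unadjusted p under 0.05, beside 2.95% of all genes: Os9, a lectin that recognizes misfolded glycoproteins, was at 28.3, 26.8, 29.2 and 27.4 in flox and 22.1, 26.4, 24.7 and 24.3 in MI4KO mice. The groups did not overlap, as for 1.70% of all genes tested in this direction. The difference was -0.19 on the log2 scale (standard error 0.08, p = 0.033 by limma, exact permutation p = 0.0286), with a limma p of 0.022 to 0.097 when single mice were left out. The median of that list was -0.02.

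None of the 16 stress sensors, eIF2alpha kinases and phosphatases was under 0.05, with a median of 0.01. The lowest and the highest were 2 of the kinases, Eif2ak3, which encodes PERK (-0.16, standard error 0.11, exact permutation p = 0.0571), and Eif2ak4, which encodes GCN2 (0.20, standard error 0.13, exact permutation p = 0.171). GCN2 mRNA was at 5.05, 4.09, 3.45 and 4.66 in flox and 5.44, 5.43, 5.45 and 4.11 in MI4KO mice, so that 3 MI4KO mice lay above the flox range and the fourth inside it. Without MI4KO mouse 4 the difference was 0.29, and without flox mouse 3, the lowest, it was 0.12.

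Among 17 tested factors and targets of the ATF4 and CHOP network, 1 gene was lower and 1 higher at an unadjusted p under 0.05, beside 2.95% and 0.413% of all genes, and the median was -0.08. Stc2, which encodes the secreted glycoprotein stanniocalcin 2, was at 1.93, 2.22, 1.88 and 2.33 in flox and 1.67, 1.49, 0.399 and 1.27 in MI4KO mice. Its groups did not overlap, as for 1.70% of all genes tested in this direction (-0.53 on the log2 scale, standard error 0.19, p = 0.018 by limma, exact permutation p = 0.0286). Leaving out MI4KO mouse 3, the lowest, gave -0.32. Vldlr, which encodes the very low density lipoprotein receptor, was at 213, 196, 193 and 193 in flox and 219, 202, 268 and 224 in MI4KO mice (0.19, standard error 0.09, p = 0.047 by limma, exact permutation p = 0.0571), and the difference was 0.11 when MI4KO mouse 3, the highest, was left out.

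In amino acid synthesis and one-carbon metabolism, 13 genes were tested and 1 was higher at an unadjusted p under 0.05, beside 0.413% of all genes. Cth, which encodes cystathionine gamma-lyase of cysteine synthesis, was at 1.12, 1.25, 1.43 and 1.02 in flox and 2.54, 1.68, 1.73 and 1.69 in MI4KO mice. Every MI4KO mouse was above every flox mouse, as for 0.371% of all genes tested (0.39 on the log2 scale, standard error 0.15, p = 0.019 by limma, exact permutation p = 0.0286). Without MI4KO mouse 1, the highest, this was 0.30, and the limma p was 0.018 to 0.066 when single mice were left out in turn. The list's median was 0.02. The 7 amino acid transporters tested had a median of -0.10, between Slc6a9 (-0.23, standard error 0.13, exact permutation p = 0.200) and Slc38a2 (0.16, standard error 0.22, exact permutation p = 0.629). Slc6a9 was -0.33 without MI4KO mouse 3, and Slc38a2 lay between -0.07 and 0.33 with single mice left out. The 18 cytosolic aminoacyl-tRNA synthetases lay between -0.16 (Tars) and 0.05 (Nars) with a median of -0.02, and the 8 genes of the mitochondrial unfolded protein response between -0.01 (Hspd1) and 0.08 (Hspe1) with a median of 0.02, all with p over 0.05 by limma. Tars was -0.27 without MI4KO mouse 3 (unadjusted p under 0.05) and -0.07 without MI4KO mouse 2. No list had a gene past both limits, although Stc2 (-0.77) and Cth (0.67) passed them with edgeR on the recovered reads, whose fold changes carry no added 1. The lists overlap in part with the 10 genes, and the adjusted p was 1.0 for every gene named.

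**Figure D5:**
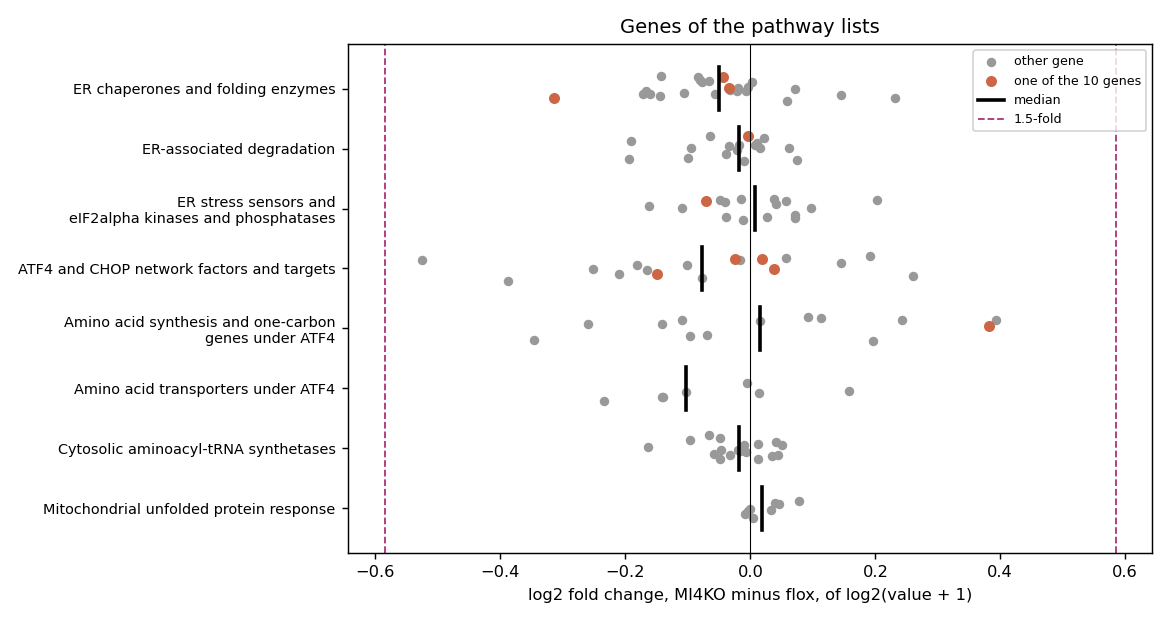
Log2 fold change (MI4KO minus flox, of log2(value + 1)) of each tested gene of the 8 pathway lists, orange for the 10 genes and gray for others; black bars are list medians and dashed lines 1.5-fold. Every point lies inside the dashed lines, from -0.53 (Stc2) to 0.39 (Cth).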

How the data were processed

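Poly(A) RNA was sequenced as single reads of 50 bases from stranded libraries. Per the labels and methods, the authors used bcl2fastq 2.17, Bowtie2 2.1.0, RSEM 1.2.15 and mm10, scaled by TMM and deposited a signal, a normalized CPM per gene and mouse. A signed score of fold change, the p-value and the FDR of the authors' own edgeR comparison stand in the same deposited table and were not used. Whole reads were recovered from 100% of values (tolerance 0.01 reads). Groups were compared with limma 3.58.1 (R 4.3.3, trend) on log2(value + 1) over genes that reached a value of 1 in 4 or more mice, with all 8 mice and no covariate. The limits were an unadjusted p under 0.05 and 1.5-fold. Single genes and pairs were tested by exact permutation (numpy 2.4.6, all 40320 orders for pairs). edgeR 4.0.16 and DESeq2 1.42.0 on recovered reads were alternatives. The limma fit was tested on simulated data. Fold change intervals are from limma and rest on the spread between mice, while counting errors and floors cover counting error only, as reads carry no molecular identifiers. Positions and exon lengths are from GENCODE M21.

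The 10 genes, lists and markers were chosen with earlier results of these data known. Genes named are the 10, Irf4, in each list those with an unadjusted p under 0.05 or an absolute log2 fold change of at least 0.58 (at most 3 a direction, otherwise the highest and lowest), and the 3 most like Hspa5 and Atf4. Macrophage markers (22.6 to 28.9) and adipocyte markers (10.7 to 47.2), summed per mouse, completed the tissue lists.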

Additional observations from a re-analysis of the deposited data

Results flagged for a closer look

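In 4 of 46 groups of 4 mice examined, over 23 genes, 1 mouse stood apart, with a gap to its nearest neighbor of more than 0.829 of the group's range (Dixon's limit for 4 values on the log2 scale). Chance flags about 1 group in 20. Of the 10 genes, Hsp90b1 was flagged: the value of 177 in MI4KO mouse 1 stood above a range of 144 to 149 in the rest of its group. The same mouse was flagged for Cth, at 2.54 with the others between 1.68 and 1.73, and for Nars, asparaginyl-tRNA synthetase, at 166 with the others between 132 and 137. MI4KO mouse 4 was flagged for Eif2ak4, at 4.11 with the others between 5.43 and 5.45. With MI4KO mouse 1 left out, Hsp90b1 differed by -0.11 on the log2 scale (exact permutation p = 0.143).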

How the results depend on the processing

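None of the 10 genes passed both limits in any of the 19 alternatives, and Pdia4 kept its direction in all of them. The number of them with an unadjusted p under 0.05 was 1 to 2 with single mice left out and 2 without flox mouse 1 and MI4KO mouse 3 (Pdia4 and Asns). Over all genes, 26 passed both limits, against 41 and 71 with pseudocounts of 0.5 and 0.1, 13 with robust estimation, 65 with edgeR, 51 with DESeq2 and 18 to 57 with single mice left out. The median of all genes moved from -0.015 to 0.0044 with median-of-ratios scaling and to 0.026 with total reads, so sign changes of values this close to 0 under these scalings come with a shift of all genes. Some fold changes turned sign, none of them called, and beyond that shift the cause was not tested. Herpud1 turned to 0.017 with median-of-ratios scaling, 0.041 with total reads, 0.011 with edgeR, 0.013 with DESeq2 and 0.024 without flox mouse 1 and MI4KO mouse 3. Hspd1 turned to 0.012, 0.035, 0.0077 and 0.010 in the first 4 of these, and to 0.023 with a covariate for the number range of the mice, where Trib3 was -0.022. Total reads gave 0.0099 for Hspa5, 0.00077 for Hsp90b1 and 0.019 for Ddit3. Ddit3 was 0.091 with edgeR and 0.099 with DESeq2. Without flox mouse 1 and MI4KO mouse 3, Hspa5 was 0.038, Atf4 -0.041, Ddit3 0.14, Chac1 0.087 and Hspe1 -0.0065. With single mice left out, ranges were -0.15 to 0.041 for Hspa5, -0.027 to 0.034 for Herpud1, -0.054 to 0.083 for Atf4, -0.28 to 0.18 for Ddit3, -0.062 to 0.23 for Trib3, -0.37 to 0.10 for Chac1, -0.079 to 0.025 for Hspd1, -0.022 to 0.086 for Nars and -0.068 to 0.33 for Slc38a2. Stc2 passed both limits with smaller pseudocounts, the covariate, both count tests and without MI4KO mouse 1 or 2, Irf4 with smaller pseudocounts and without flox mouse 1, and Cth with a pseudocount of 0.1 and both count tests. No pair of genes passed the adjustment in any alternative, of which leaving out 6 of the mice was chosen after seeing the data.

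No paired analysis was possible because the replicate numbers only name mice and no label pairs a flox mouse with an MI4KO mouse. Depth limits genes with few reads, such as Irf4 (4 to 23 a mouse) and Asns (7 to 34), and Cth and Stc2, whose values were close to those of Asns. Groups of 4 cannot give an exact p below 0.0286.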

Other observations

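Some genes of the lists, named after their values were seen, set MI4KO mouse 3 apart in the ATF4 network while Ddit3 and Trib3 were lowest there. Ddit4, an inhibitor of mTORC1 that ATF4 and glucocorticoids can induce, was at 90.1 in MI4KO mouse 3 and at 8.81 to 24.4 in the other 7 mice. Gpt2, mitochondrial alanine aminotransferase, was at 111 there and at 33.3 to 45.3 elsewhere, and Cebpb, a C/EBP partner of ATF4, was at 251 and at 103 to 147. Neutrophil marker RNA was also highest in that mouse, at 4.32, and its part in these values was not tested.

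Fgf21, a hormone that ATF4 induces in stressed muscle, had 0 reads in all 8 mice, which allows a value of up to 0.181 to 0.225 in each. Gdf15, another stress hormone, had 38 reads over all mice, with group means of 0.327 in flox and 0.319 in MI4KO mice, and was not tested.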
